A study of Mus musculus with 10 samples.

Results

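The Hox cluster genes described here are the entries of the deposited expression table named Hox, then a cluster letter from a to d, then a paralog number. Of the 26888 genes in the table, 26 chosen by this rule are described, of which 8 belong to the HoxA cluster, 9 to HoxB, 6 to HoxC and 3 to HoxD. Hox genes encode homeodomain transcription factors, and their order along each cluster follows the order in which they are active along the body axis, with low paralog numbers anterior and high ones posterior. Stromal cells from different body sites keep part of this pattern in culture, which is why Hox genes are read as a record of positional identity. Much of the skull vault derives from cranial neural crest and head mesoderm that develop in front of the Hox domains.

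RNA sequencing was done on OP9, a mouse stromal line from the calvaria, the bones of the skull vault, of (C57BL/6xC3H)F2-op/op animals, which lack functional macrophage colony-stimulating factor. The labels call the donor tissue foetal, whereas the study's text calls it newborn. The 6 reaggregates were trypsinised cells packed together and kept for 48 h on filters at the liquid-gas interface, with IL-3 (labelled 200 µg/µl) in reaggregates 2, 4 and 6 and without it in 1, 3 and 5. The 4 flat cultures were grown as adherent layers, and only flat cultures 2 and 4 carry a label for their source, de Bruijn. The study's methods name the Medvinsky group beside the de Bruijn group as keepers of the flat cells. The labels give no source for flat cultures 1 and 3 or for the reaggregates, and none is assigned here. The cells are 1 line, and the labels do not say which libraries came from separate cultures, so the p-values below measure only the spread between samples that may be technical. Values are RPM, a gene's reads scaled to a common total per library, and the reads on genes were estimated at 7352941 to 9433962 per library. A floor of 3 reads corresponded to 0.318 to 0.408 RPM, and floors and counting intervals cover counting error only.

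Libraries stood apart in a pattern that bears on every comparison. Consecutive reaggregates (1 and 2, 3 and 4, 5 and 6), which carry different IL-3 labels, differed from each other by little more than counting noise. Their mean chi-square per gene with 20 to 200 reads was 1.02 to 1.26, where 1 is counting noise alone, against 4.41 to 9.24 between the other reaggregate pairs. Over genes with 200 to 2000 reads the consecutive pairs reached 1.38 to 2.63. They were kept as 6 libraries, and the fits against flat cultures were repeated with each pair averaged. Over the 10 Hox genes above 0.5 RPM, flat cultures 2 and 4 lay 0.29 log2 units apart (root mean square of the differences), but 1.45 to 1.61 units from flat cultures 1 and 3. Flat cultures 2 and 4 also lay 1.11 to 1.80 units from the reaggregates, whereas flat cultures 1 and 3 lay 0.37 to 0.81 units from them. Flat cultures 1 and 3 lay 0.70 units from each other. Over all genes tested the 2 kinds of flat culture lay 1.01 to 1.16 units apart, flat cultures 2 and 4 lay 0.50 and flat cultures 1 and 3 lay 0.73 units from each other, and the distances to the reaggregates were 0.69 to 1.17 units for flat cultures 1 and 3 and 1.11 to 1.34 for flat cultures 2 and 4.

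Of the 26 Hox genes, 10 exceeded 0.5 RPM in at least 1 library, and these were 7 of 8 HoxA genes and 3 of 9 HoxB genes. None of the 6 HoxC or 3 HoxD genes did so. By paralog number, 4 of 5 anterior genes (paralog numbers up to 3), 5 of 12 central genes (4 to 8) and 1 of 9 posterior genes (9 to 13) exceeded that level. These counts cover only the genes described, which are not all Hox genes of the mouse. Hoxd4, Hoxd8 and Hoxd9, for example, are not among them, so the clusters are not fully surveyed. Summed RPM by cluster and paralog number is not scaled to gene length. The HoxA genes made up most of the summed Hox RPM in all 10 libraries, with 50.6 to 126 RPM in the reaggregates and 56.6, 75.3, 109.9 and 80.9 RPM across flat cultures 1 to 4. This corresponded to 83.8% to 99.0% of the RPM of the 26 genes in a library, the lowest share being that of flat culture 2. The sums of the anterior genes were 33.4, 76.2 and 102 RPM as lowest, median and highest of the reaggregates, and 37.5, 70.2, 82.6 and 77.5 RPM across flat cultures 1 to 4. Posterior genes summed to 0.256 to 1.50 RPM in the reaggregates, to 2.27 and 1.82 RPM in the flat cultures labelled de Bruijn and to 0.576 and 0.958 RPM in the other 2 flat cultures.

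**Figure D1:**
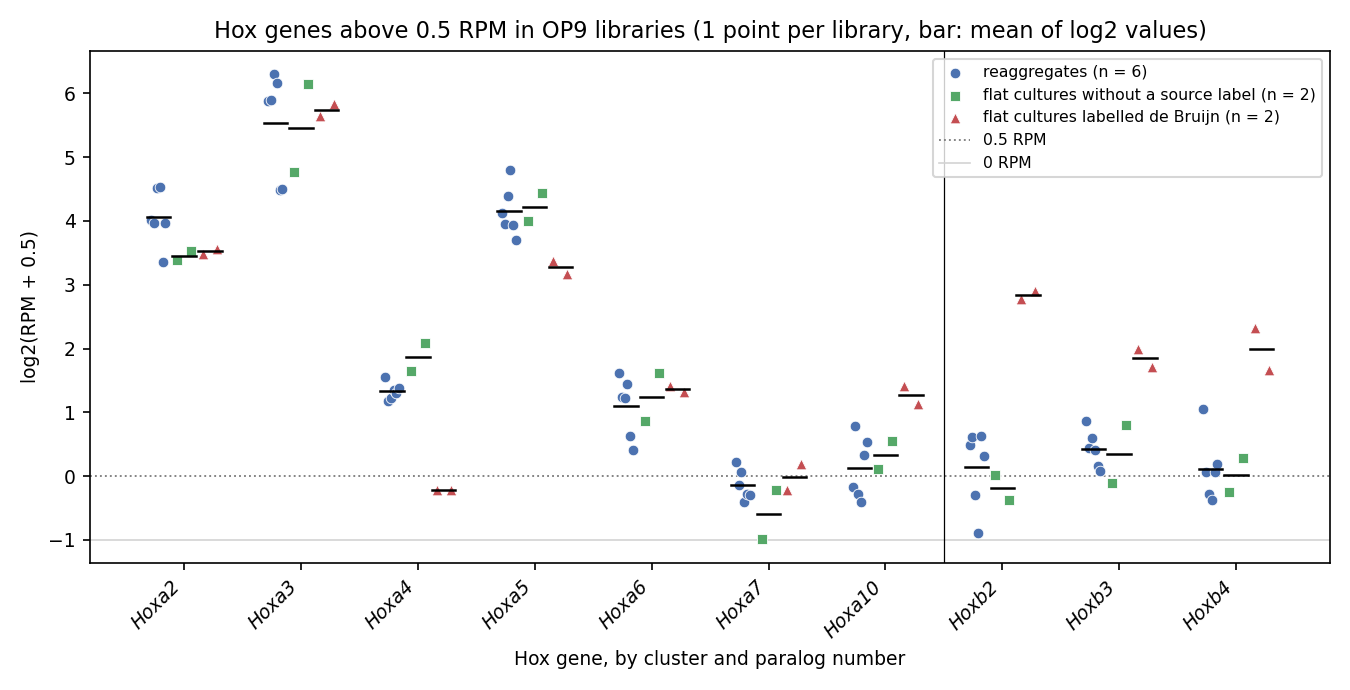
Level of each of the 10 Hox genes above 0.5 RPM in each of the 10 libraries (y axis, log2 of RPM + 0.5), with the 6 reaggregates and the 2 kinds of flat culture coloured apart and a bar at the mean of the log2 values. Hoxb2, Hoxb3 and Hoxb4 are highest in the 2 flat cultures labelled de Bruijn, where Hoxa4 is lowest.

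Single genes are compared with each other per length, as mean RPM per kb of exon over the 10 libraries. Hoxa5, which patterns the lung and the cervicothoracic vertebrae, had the highest such level, 8.64 RPM per kb, at percentile 58.7 of the 16462 genes with annotated exons that passed 0.5 RPM. Hoxa3, which is needed for the thymus and parathyroid, followed at 7.83 RPM per kb, and Hoxa2, which sets the identity of the hyoid arch skeleton, at 5.94 RPM per kb. The order of these 3 genes was not the same in every library: Hoxa5 ranged from 4.53 to 14.5, Hoxa3 from 3.34 to 11.96 and Hoxa2 from 4.04 to 9.37 RPM per kb. Within a library Hoxa5 exceeded Hoxa2 in 9 of 10, Hoxa3 exceeded Hoxa2 in 7 and Hoxa5 exceeded Hoxa3 in 6. The rank of Hoxa3 depends on the length used. Its annotated exons cover 6.57 kb, whereas its protein-coding transcripts hold only 3109 different windows of 50 bases. For Hoxa5 the exons cover 1.88 kb beside 1828 windows, and for Hoxa2 2.42 kb beside 2374. A shorter length would raise the level of Hoxa3 per kb, so its place below Hoxa5 is not certain. Hoxa4 had a mean level of 1.21 and Hoxa6 of 0.914 RPM per kb. Hoxb2, Hoxb3 and Hoxb4 had mean levels of 0.551, 0.437 and 0.293 RPM per kb, at percentiles 15.4, 13.5 and 10.5 of the same genes. In the flat cultures labelled de Bruijn this order differed, with means of 2.02, 1.04 and 0.868 RPM per kb for these 3 genes and of 0.227 for Hoxa4. Hoxa10 at 0.242 and Hoxa7 at 0.135 RPM per kb were the lowest of the 10.

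The anterior genes Hoxa2 and Hoxa3 were detected in every library. Hoxa2 (ENSMUSG00000014704) had levels, in RPM, of 15.7, 15.1, 22.4, 22.7, 9.80 and 15.2 across reaggregates 1 to 6 and of 10, 10.7, 11 and 11.3 across flat cultures 1 to 4. Reaggregates 3 and 4 were highest for this gene, reaggregate 5 was lowest, and the groups overlapped. Hoxa3 (ENSMUSG00000079560) had levels, in RPM, of 58.4, 59.0, 78.5, 71.4, 21.9 and 22.2 across reaggregates 1 to 6 and of 26.6, 49.7, 70.1 and 56.4 across flat cultures 1 to 4. Reaggregates 5 and 6 and flat culture 1 were low for Hoxa3 and the other 7 libraries high, so the groups overlapped. Exons of Hoxa3 share 53.5% of their length with antisense RNAs and a second entry placed at Hoxa3 and those of Hoxa2 share 11.02% with that second entry. Without strand, reads in these stretches cannot be told apart.

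Among the central HoxA genes, Hoxa4 and Hoxa5 had their lowest values in flat cultures 2 and 4. These 2 cultures lay below the other 8 libraries for 19.1% of all genes. Hoxa4 (ENSMUSG00000000942), which patterns cervical vertebrae, had levels, in RPM, of 2.45, 1.77, 1.85, 2.06, 1.96 and 2.12 across reaggregates 1 to 6 and of 2.65, 0.360, 3.73 and 0.364 across flat cultures 1 to 4. The values in the flat cultures labelled de Bruijn correspond to about 3 reads each, and they lay below the other 8 libraries. Hoxa5 (ENSMUSG00000038253) had levels, in RPM, of 16.9, 15.0, 20.6, 27.2, 14.8 and 12.5 across reaggregates 1 to 6 and of 15.5, 9.90, 21.2 and 8.50 across flat cultures 1 to 4. The same 2 flat cultures were lowest for Hoxa5, while flat cultures 1 and 3 lay within the range of the reaggregates. Hoxa6 (ENSMUSG00000043219), which is active in the thoracic region of the embryo, had levels, in RPM, of 2.56, 1.86, 1.83, 2.23, 1.05 and 0.833 across reaggregates 1 to 6 and of 1.32, 2.15, 2.57 and 1.99 across flat cultures 1 to 4. Reaggregates 5 and 6 and flat culture 1 were lowest, and the groups overlapped. Hoxa7 (ENSMUSG00000038236), another thoracic Hox gene, was near the floor, with at most 0.662 RPM. Its exons share 20.4% of their length with the antisense RNA Hoxaas3, where reads cannot be told apart without strand.

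Of the posterior HoxA genes, Hoxa10 (ENSMUSG00000000938), a regulator of lumbar vertebrae and the uterus, was the one above 0.5 RPM. It had levels, in RPM, of 0.385, 1.23, 0.327, 0.256, 0.759 and 0.956 across reaggregates 1 to 6 and of 0.576, 2.15, 0.958 and 1.70 across flat cultures 1 to 4. The 2 flat cultures labelled de Bruijn were highest, and flat cultures 1 and 3 lay within the range of the reaggregates. The 2 labelled cultures lay above the other 8 libraries for 12.1% of all genes. Hoxa9, which is active in blood stem cells and in the lumbar region, reached 0.272 RPM, about 2 reads, in reaggregates 1 and 2 and was listed at 0 in the other 8 libraries.

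The 3 anterior-most HoxB genes listed were low in 8 libraries and higher in flat cultures 2 and 4. Hoxb2 (ENSMUSG00000075588), which specifies facial motor neurons, had levels, in RPM, of 0.898, 1.03, 0.317, 0.0397, 1.05 and 0.744 across reaggregates 1 to 6 and of 0.508, 6.34, 0.275 and 7 across flat cultures 1 to 4. Hoxb3 (ENSMUSG00000048763), which acts with Hoxa3 in the pharyngeal arches, had levels, in RPM, of 1.32, 0.862, 1.02, 0.831, 0.613 and 0.558 across reaggregates 1 to 6 and of 0.433, 3.47, 1.24 and 2.78 across flat cultures 1 to 4. Hoxb4 (ENSMUSG00000038692), known for expanding blood stem cells when overexpressed, had levels, in RPM, of 1.58, 0.545, 0.327, 0.268, 0.542 and 0.637 across reaggregates 1 to 6 and of 0.345, 4.53, 0.719 and 2.67 across flat cultures 1 to 4. For all 3 genes both flat cultures labelled de Bruijn lay above the other 8 libraries, as they did for 12.1% of all genes, and several of the low values were under the floor of 3 reads. The summed HoxB level was 1.27 to 3.86 RPM in the reaggregates, 14.5 and 12.7 RPM in flat cultures 2 and 4 and 1.29 and 2.23 RPM in flat cultures 1 and 3. Exons of the antisense RNA Hoxb3os cover 49.4% of the exons of Hoxb2 and 37.9% of those of Hoxb3, so reads of these genes cannot be told apart there without strand, whereas exons of Hoxb4 and Hoxa4 overlap no other gene. Hoxb3os itself had 0.944 to 2.30 RPM in the reaggregates and 0.786, 5.10, 2.20 and 6.13 RPM across flat cultures 1 to 4.

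The remaining 16 Hox genes did not exceed 0.5 RPM in any of the 10 libraries, and the highest value among them was that of Hoxa9. In the HoxB cluster Hoxb5, Hoxb6, Hoxb7, Hoxb8 and Hoxb9, which pattern the trunk, had at most 0.109, 0.128, 0.0607, 0.119 and 0.121 RPM, no more than about 1 read in a library. Hoxb7 and Hoxb8 share 26.2% and 40.4% of their exon length with each other, where their reads cannot be told apart. Hoxb13, the most posterior gene of its cluster, was listed at 0 throughout. In the HoxC cluster Hoxc6 and Hoxc10 had at most 0.120 and 0.119 RPM, and Hoxc4, Hoxc8, Hoxc9 and Hoxc12 were listed at 0. Hoxd3, Hoxd10 and Hoxd11, the last of which patterns the forearm, were also listed at 0 in all 10 libraries. For these genes a level under the floor of 0.318 to 0.408 RPM was not detectable at this depth.

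**Figure D2:**
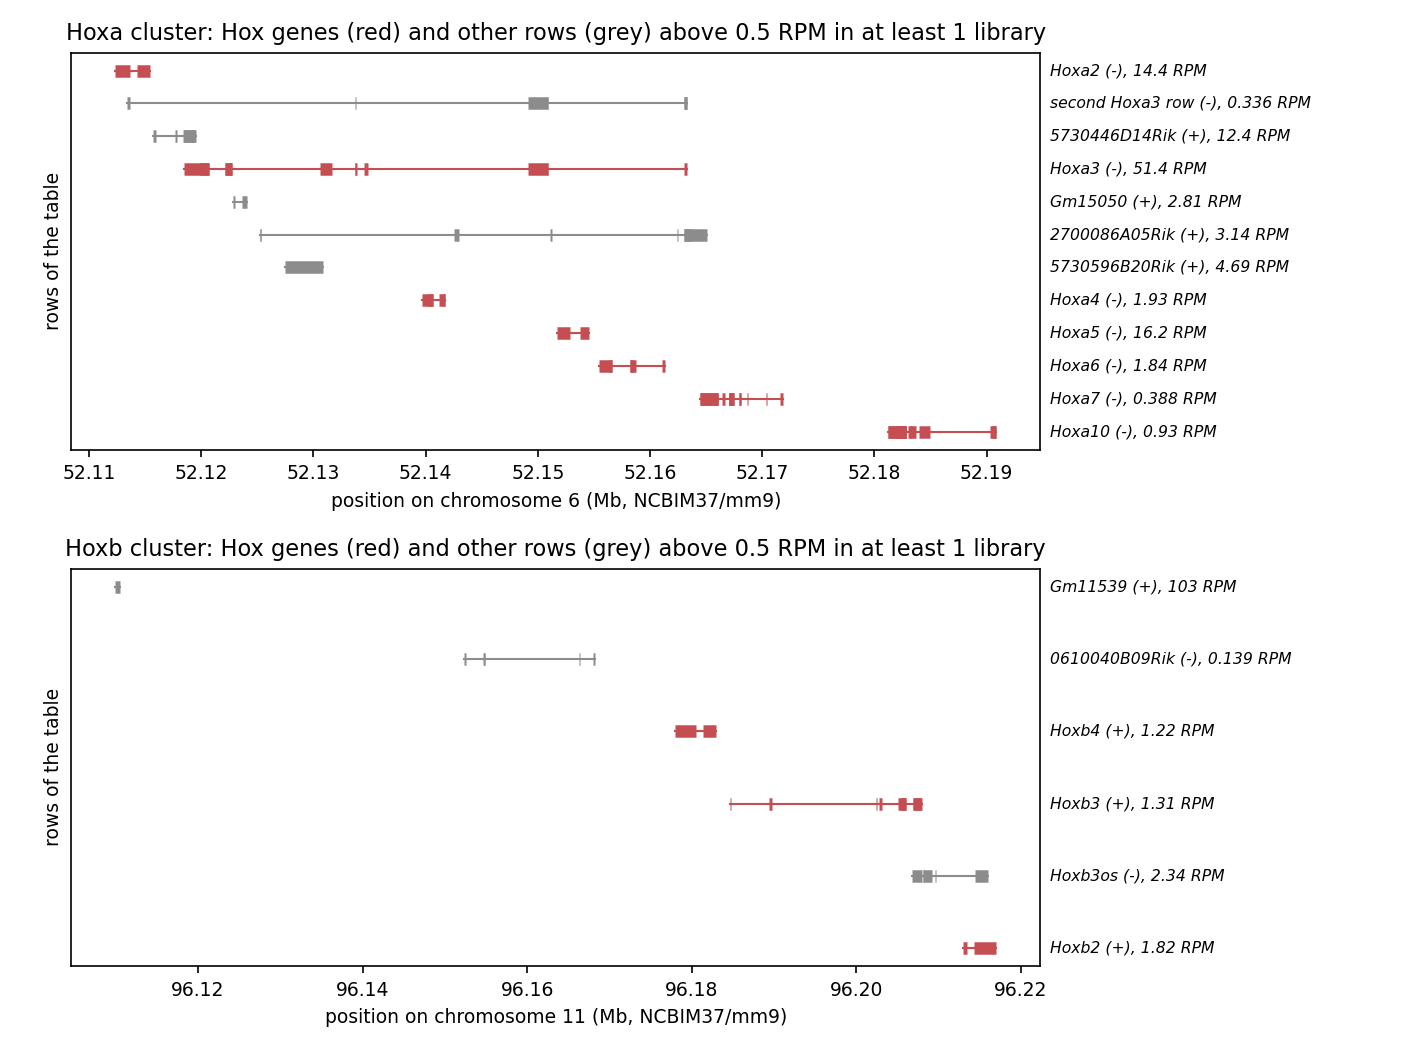
Positions of the HoxA genes on chromosome 6 and the HoxB genes on chromosome 11 (x axis, mouse build NCBIM37, in megabases), with the strand of each and its mean RPM over the 10 libraries, for entries above 0.5 RPM in at least 1 library. The HoxA entries run on both strands, and Hoxb2, Hoxb3 and Hoxb4 lie beside each other at 1 end of their cluster.

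The positions of these genes follow the cluster order (mouse build NCBIM37). The HoxA genes described lie on the minus strand at chr6:52112350-52190853 and the HoxB genes on the plus strand at chr11:96055630-96217003. The 3 detected HoxB genes are neighbours, with Hoxb4 at chr11:96177998-96182952, Hoxb3 at chr11:96184640-96207999 and Hoxb2 at chr11:96212946-96217003. In these HoxA and HoxB intervals 10 further entries of the table were located by coordinates, a rule added after the data were seen, and 8 of them exceeded 0.5 RPM. None of the 8 was called in any of the 3 comparisons, beside shares of all genes between 0% and 7.32% called in a direction. Hotairm1, a non-coding RNA of the HoxA cluster taken from a fixed list, had levels, in RPM, of 11.9, 13.3, 11.5, 14.5, 4.55 and 5.07 across reaggregates 1 to 6 and of 5.43, 6.90, 11.7 and 14.3 across flat cultures 1 to 4. The antisense RNA Hoxaas2 had levels, in RPM, of 16.8, 18.6, 26.5, 18.5, 7.19 and 6.86 across reaggregates 1 to 6 and of 8.49, 3.90, 10.4 and 6.43 across flat cultures 1 to 4. Hoxaas3 had levels, in RPM, of 5.24, 5.43, 5.06, 5.89, 0.976 and 1.33 across reaggregates 1 to 6 and of 0.830, 0.725, 3.93 and 1.97 across flat cultures 1 to 4. In reaggregates 5 and 6 all 3 RNAs were lower than in the other 4 reaggregates. This split, chosen after the values were seen, also held for 4 of the 10 Hox genes above 0.5 RPM, Hoxa3, Hoxa5, Hoxa6 and Hoxb3, and for 33.2% of all genes. Hoxa3 shares exon bases with Hoxaas2 and Hoxaas3, so without strand some reads may be common to these entries.

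The comparison of the flat cultures asks how far the 2 labelled de Bruijn differ from the 2 without a source label. Hoxb2 rose and Hoxa4 fell in the flat cultures labelled de Bruijn. A gene was called when its limma p, adjusted by the Benjamini-Hochberg method over the 16933 genes that passed 0.5 RPM in 1 or more libraries, was at most 0.05 and its difference at least 2-fold. Of the 10 Hox genes tested 1 was called higher, beside 1.82% of all genes, and 1 was called lower, beside 3.87% of all genes. Groups did not overlap for 4 Hox genes higher in the de Bruijn cultures, Hoxa10, Hoxb2, Hoxb3 and Hoxb4, where 18.2% of all genes were this way, and for 2 lower, Hoxa4 and Hoxa5, where 34.1% of all genes were. The median log2 difference was 0.44 over the 10 Hox genes and -0.17 over all genes tested. Quantile normalization moved the median of all genes to 0.05 and median-ratio scaling to -0.06. The share of called genes that were higher was 32.0% with RPM as deposited and 44.9% after quantile normalization, and all 6 of these Hox genes kept their direction under both.

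Hoxb2 differed by a log2 difference of 3.02 (SE 0.34, 95% interval 2.17 to 3.86, limma adjusted p = 0.0127), higher in 2 of 2 de Bruijn cultures. Summed over each pair of libraries it had about 111 reads against 7, a ratio of 16.2 with an exact 95% counting interval of 7.61 to 41.2. Hoxa4 differed by -2.08 log2 units (SE 0.32, 95% interval -2.88 to -1.29, limma adjusted p = 0.0278), lower in 2 of 2. It had about 6 reads against 54, which is 8.81 times as many in the cultures without a source label, with a counting interval of 3.79 to 25.1. Both calls rested on all 4 flat cultures, since leaving out any 1 of them left 0 of all genes called by limma. The adjusted p was then 0.0777 to 0.197 for Hoxb2, at a log2 difference of 2.83 to 3.21, and 0.0595 to 0.303 for Hoxa4, at -2.29 to -1.87. In these fits 1 group holds a lone library, which is assumed to vary like the others. Both calls were also lost with no filter on low values, at adjusted p = 0.0868 for Hoxb2 and 0.114 for Hoxa4. Across the 12 alternatives each gene was called in 7, with adjusted p from 0.000464 to 0.197 for Hoxb2 and from 0.000428 to 0.303 for Hoxa4.

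The other Hox genes missed the threshold in this comparison. Hoxb4 differed by 1.98 log2 units (95% interval 0.98 to 2.97, limma adjusted p = 0.0530), with about 60 reads against 9 and a ratio of 6.81 (counting interval 3.36 to 15.6). Hoxb3 differed by 1.50 log2 units (95% interval 0.46 to 2.55, limma adjusted p = 0.107), a ratio of 3.80 in reads. Hoxb4 was called in 3 of 12 alternatives and Hoxb3 in 2, among them a single fit of all 10 libraries in 3 groups, where the adjusted p was 0.0113 for Hoxb4 and 0.0150 for Hoxb3. Hoxa10 differed by 0.95 log2 units (adjusted p = 0.166) and Hoxa5 by -0.95 (adjusted p = 0.184). Hoxa2, Hoxa3, Hoxa6 and Hoxa7 differed by 0.07 to 0.58 log2 units with intervals that include 0, and a p that misses the threshold does not show that their levels were equal.

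Setting reaggregates beside flat cultures compares packed OP9 cells with adherent layers. The reaggregates also differed by culture at the liquid-gas interface and, by the study's methods, by dissociation with collagenase/dispase before RNA extraction. These steps cannot be told apart from packing. None of the 10 Hox genes tested was called, and for each of them the 2 groups overlapped. Limma called 0 of 10 lower, beside 6.53% of all genes, and 0 of 10 higher, beside 7.32% of all genes, and 1 of the 10, Hoxa2, had a p under 0.05 before adjustment, beside 7337 of all genes (43.3%). Of all genes, 11.4% were lower and 7.80% higher in every reaggregate than in every flat culture. The median log2 difference was -0.13 over the 10 Hox genes and 0.04 over all genes. In bulk RNA, fewer cells that express a gene and less RNA per cell cannot be told apart.

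Hoxa2 had a mean of 16.8 ± 4.94 RPM in the reaggregates (SD, n = 6) and of 10.8 ± 0.557 RPM in the flat cultures (SD, n = 4). It had the smallest limma adjusted p of the 10 Hox genes, 0.0777, at a log2 difference of 0.57 (95% interval 0.07 to 1.07). Hoxb2 differed by -1.19, Hoxb4 by -0.89, Hoxb3 by -0.67 and Hoxa10 by -0.66 log2 units, with limma adjusted p from 0.135 to 0.181. Hoxa4, Hoxa5, Hoxa7, Hoxa3 and Hoxa6 differed by 0.51, 0.40, 0.17, -0.06 and -0.21 log2 units, with intervals that include 0. Leaving out flat culture 3 made Hoxb2 a gene called lower (log2 difference -1.75, limma adjusted p = 0.0390) and raised the count of all genes called from 2345 to 3643. Leaving out flat culture 1 made Hoxb3 a gene called lower (log2 difference -1.07, limma adjusted p = 0.0258). Averaging consecutive reaggregates lowered the count of all genes called to 741.

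Set against each kind of flat culture alone, the same 6 reaggregates gave different Hox values. Against the 2 flat cultures labelled de Bruijn, 4 Hox genes were called lower, beside 10.5% of all genes, and 1 higher, beside 15.2% of all genes. Hoxb2 fell by 2.70 log2 units (limma adjusted p = 0.000568), Hoxb4 fell by 1.88 (0.00260), Hoxb3 fell by 1.42 (0.00157) and Hoxa10 fell by 1.14 (0.0212), each lower in 6 of 6 reaggregates. Hoxa4 rose by 1.55 log2 units (limma adjusted p = 0.000254), higher in 6 of 6. Hoxa5 was higher by 0.88 log2 units (limma adjusted p = 0.0240), less than 2-fold. With consecutive reaggregates averaged, a fit added after the data were seen, limma called the same 5 Hox genes, beside 10.2% of all genes called lower and 14.7% higher, at adjusted p = 0.00240 for Hoxb2, 0.00732 for Hoxb4, 0.0104 for Hoxb3, 0.0315 for Hoxa10 and 0.00424 for Hoxa4. Against the 2 flat cultures without a source label no Hox gene was called by limma, beside 3.70% of all genes called higher and 6.17% called lower. There Hoxa4 differed by -0.53 log2 units (adjusted p = 0.106), Hoxb2 by 0.32 (0.608), Hoxb4 by 0.10 (0.873) and Hoxb3 by 0.08 (0.875). With consecutive reaggregates averaged limma called 0 Hox genes there, beside 0.715% of all genes called higher and 2.36% lower, and 0 of the 10 had a p under 0.05 before adjustment, beside 3573 of all genes. Hoxa4, Hoxb2, Hoxb3 and Hoxb4 thus had opposite signs against the 2 kinds of flat culture. So did Hoxa3 (-0.20 and 0.09), Hoxa5 (0.88 and -0.07) and Hoxa7 (-0.12 and 0.46), the de Bruijn value first. Against the cultures without a source label the intervals of these genes, except that of Hoxa4, include 0. The 2 sets of values share the reaggregates, which carry no source label. Packing and the source of the cells therefore cannot be told apart against either kind of flat culture. The study's methods compared all reaggregates with all flat cultures. As grounds they state that IL-3 did not change transcription and that cell source and passage number gave equivalent variance. The labels do not give passage number, so source and passage cannot be told apart either.

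**Figure D3:**
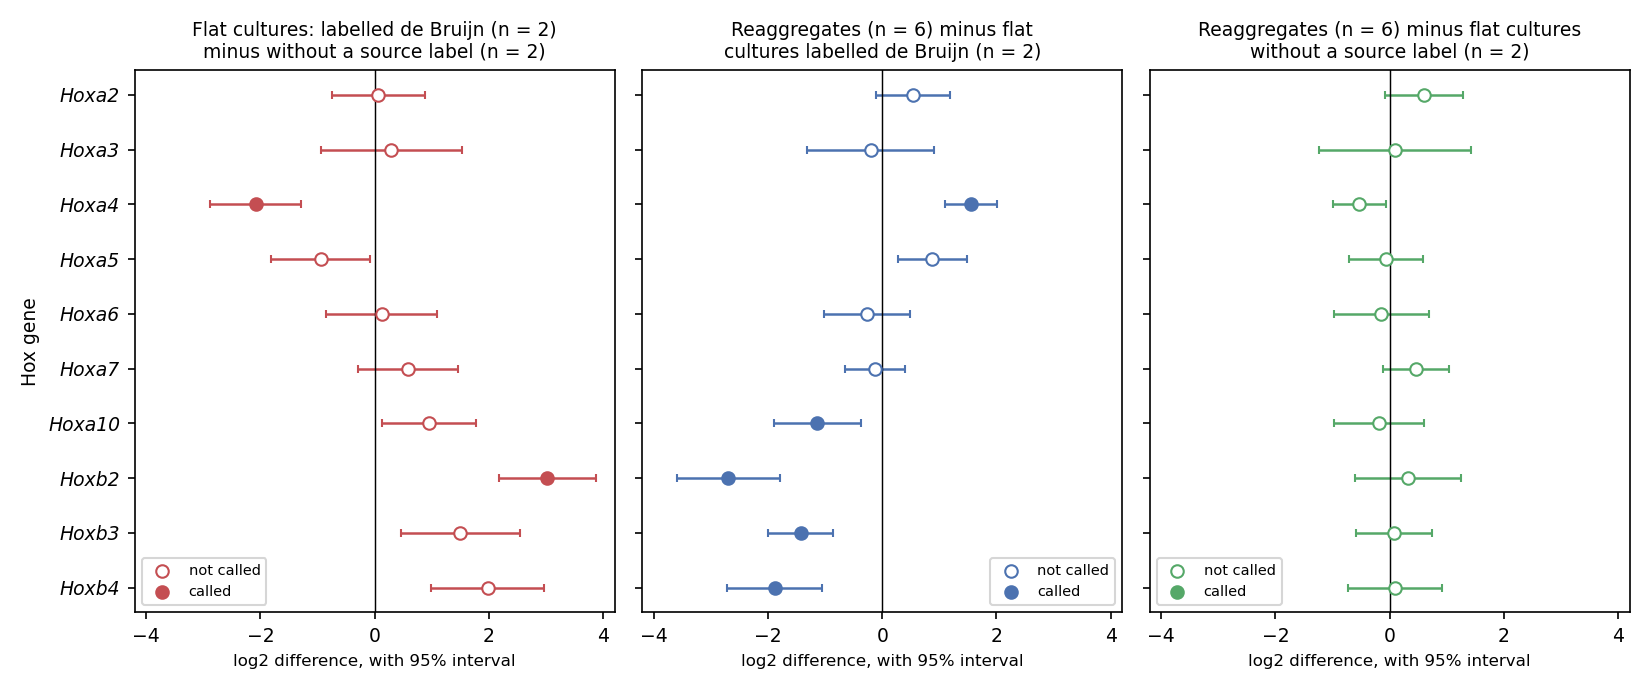
Log2 difference (x axis, with 95% interval from limma) of the 10 Hox genes for the flat cultures labelled de Bruijn minus those without a source label, and for the 6 reaggregates minus each kind of flat culture. Filled points are called, and the right panel, against the flat cultures without a source label, holds none.

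IL-3 in the reaggregate culture was compared within the reaggregates, 3 with it and 3 without. No Hox gene was called, and limma called 0 of all 16933 genes (0% higher and 0% lower), and 68 genes had a limma p of up to 0.05 before adjustment. No Hox gene had groups that did not overlap, where 1.16% of all genes were higher and 0.791% lower in every library with IL-3. The log2 differences of the 10 Hox genes ran from -0.32 for Hoxb4 to 0.35 for Hoxa10, each with limma adjusted p = 1. Their median was -0.09, beside 0.01 over all genes. The interval was widest for Hoxa3, from -1.52 to 1.45 log2 units around -0.03, with 1 low library (reaggregates 5 and 6) in each group. With consecutive reaggregates as a block that interval was -0.19 to 0.12, and limma again called 0 of all genes, where 564 had a p of up to 0.05 before adjustment. The adjusted p of the 10 Hox genes was then 0.982 to 1, and 0 of them had a p under 0.05 before adjustment. Hoxa7 (log2 difference -0.28) and Hoxb3 (-0.23) were lower with IL-3 in 3 of 3 consecutive pairs, with intervals that include 0, and 8.78% of all genes were lower in all 3 pairs. For Hoxa7 reaggregates 5 and 6 had about 3 reads each, so this pair differed only by the scaling to RPM.

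Genes that act with or on Hox genes were taken from fixed lists. A listed gene counts as above 0.5 RPM when it passed that level in at least 1 library. All 9 TALE homeodomain cofactors exceeded 0.5 RPM in at least 1 library, Pbx4 in flat culture 4 alone (0.729 RPM). They are the Pbx, Meis and Pknox proteins, which bind DNA together with Hox proteins, and Meis3 was the most abundant at 27.6 RPM per kb. Of these cofactors 2 were called higher in reaggregates, beside 7.32% of all genes, Pbx3 (log2 difference 1.64, limma adjusted p = 0.00357) and Meis3 (1.34, 0.00709). Between the flat cultures none of the 9 was called, beside 1.82% of all genes called higher and 3.87% lower. All 20 Polycomb genes, whose products keep Hox genes silent, were above 0.5 RPM, with Jarid2 highest at 201 RPM per kb. In reaggregates 3 of the 20 were called higher, beside 7.32% of all genes: Cbx6 (log2 difference 1.43, limma adjusted p = 0.0116), Ezh1 (1.36, 0.00414) and Pcgf2 (1.11, 0.0101). Others of the list were lower there without a call, such as Ezh2 (-0.50, 0.0918), named after its values were seen. In the de Bruijn cultures 1 of the 20 was called lower, beside 3.87% of all genes: Phf19 fell by 3.24 log2 units (limma adjusted p = 0.0167). Phf19 had 5.44 to 8.92 RPM in the reaggregates and 24.5, 3.34, 33.0 and 1.94 RPM across flat cultures 1 to 4. Of 11 Trithorax and H3K27 demethylase genes, which keep Hox genes active and of which Dpy30 was most abundant at 29.0 RPM per kb, 2 were called higher in reaggregates, beside 7.32% of all genes, Kdm6b (log2 difference 2.23, limma adjusted p = 0.00192) and Dot1l (1.60, 0.0413), while Dpy30 was lower by less than 2-fold (-0.92, 0.0297). The Dot1l call was lost without any 1 of reaggregates 1 to 4 or of flat cultures 1, 2 and 4, at an adjusted p of up to 0.117, and the Pcgf2 call without flat culture 4, at less than 2-fold.

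Retinoic acid is a known inducer of anterior Hox genes, and 17 of 18 genes of its pathway were found, 12 of them above 0.5 RPM. The receptor Rarg was most abundant at 40.8 RPM per kb. Between the flat cultures 3 were called, each higher with the de Bruijn label, beside 1.82% of all genes called higher and 3.87% lower, and their part in the Hoxb2 result was not tested. The list as a whole had a median log2 difference of -0.07, beside -0.17 over all genes, with Rdh10, named after its values were seen, at -1.10 and Rarg at -0.71 (limma adjusted p = 0.131 and 0.241). Dhrs3, a retinaldehyde reductase, rose by 2.98 log2 units (limma adjusted p = 0.0170), Aldh1a1, which makes retinoic acid, by 2.11 (0.0454), and Cyp26b1, which degrades it, by 1.80 (0.0348). Cyp26b1 had 2.72 to 7.48 RPM in the reaggregates and 11.3, 46.2, 11.7 and 36.9 RPM across flat cultures 1 to 4. It fell by 2.03 log2 units in the reaggregates (limma adjusted p = 0.00547), where Rxra rose by 1.01 (0.00259). Of all genes, 6.53% were called lower and 7.32% higher in reaggregates. The Rxra difference was under 2-fold without any 1 of reaggregates 2, 3 and 4 or of flat cultures 1 and 4. The summed RPM of the 17 genes was 527 to 616 in the reaggregates and 352, 412, 457 and 328 in flat cultures 1 to 4.

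Of 6 ParaHox genes, relatives of the Hox genes that pattern the gut and tail, 3 were found, none exceeded 0.5 RPM and Cdx4 and Pdx1 were listed at 0. Of 21 cranial factors 17 were found and 9 exceeded 0.5 RPM, with Msx1 most abundant at 8.01 RPM per kb, and none was called in any of the 3 comparisons, beside the same shares of all genes. Of 20 trunk and limb factors 13 were found and 10 exceeded 0.5 RPM, with Nr2f1 most abundant at 7.51 RPM per kb. Their median log2 difference between the flat cultures was 0.42. Tbx4, a hindlimb factor, had 3.46 and 3.40 RPM in the flat cultures labelled de Bruijn, 0.136 RPM in reaggregate 2 and 0 in the other 7 libraries (log2 difference between the flat cultures 2.97, limma adjusted p = 0.00839). It was the 1 gene of its list called higher there, beside 1.82% of all genes. Tbx4 passed the filter only through those 2 cultures, so this p is not read as support for a difference. The result with no filter is given below. Of 15 genes flanking the clusters 13 were found and 11 exceeded 0.5 RPM, with Hnrnpa1 most abundant at 235 RPM per kb. Of these 11, 1 was called higher in reaggregates, beside 7.32% of all genes, and 1 lower, beside 6.53%. Calcoco1 rose by 1.46 log2 units (limma adjusted p = 0.000323) and Skap1, beside the HoxB cluster, fell by 1.56 (0.0469). The Skap1 call was lost without any 1 reaggregate or without flat culture 2 or 4, at an adjusted p of up to 0.143. Of 11 non-coding RNAs of the clusters on a fixed list 3 were found, and of these 3 Hotairm1 alone exceeded 0.5 RPM, at 9.67 RPM per kb. Hoxaas2, Hoxaas3 and Hoxb3os, which were located by coordinates, are not among these 3.

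Cell type markers differed between the same libraries as Hoxb2 and Hoxa4, and their part in those results was not tested. Of 9 stromal markers 8 exceeded 0.5 RPM, with Vim most abundant at 2301 RPM per kb. Their sum was 21203 to 27819 RPM in the reaggregates and 12203, 12236, 19939 and 8497 RPM across flat cultures 1 to 4. In reaggregates 5 of the 9 were called higher, beside 7.32% of all genes: Col3a1 by 4.11, Col1a1 by 1.93, Col1a2 by 1.83, Pdgfrb by 1.74 and Pdgfra, named after its values were seen, by 1.58 log2 units (limma adjusted p = 0.00439, 0.00643, 0.00787, 0.00103 and 0.000304). Vim, the most abundant, went the other way without a call, at a log2 difference of -0.54 (limma adjusted p = 0.0787). In the de Bruijn cultures 1 of the 9 stromal markers was called lower, beside 3.87% of all genes: Col3a1 fell by 4.02 log2 units (limma adjusted p = 0.0182). All 5 adipocyte markers exceeded 0.5 RPM in at least 1 library, with Fabp4 most abundant at 219.8 RPM per kb and Adipoq at most at 0.768 RPM. They summed to 90.9 to 133 RPM in the reaggregates but 116, 1020, 169.8 and 1126 RPM across flat cultures 1 to 4. Between the flat cultures 3 of the 5 were called higher with the de Bruijn label, beside 1.82% of all genes, Fabp4 by 3.84, Pparg by 2.66 and Plin1 by 1.86 log2 units (limma adjusted p = 0.00940, 0.0120 and 0.0185). Plin1 passed the filter only through the 2 labelled cultures (1.43 and 1.21 RPM), so its p is not read as support for a difference. Its result with no filter is given below. In reaggregates 3 of the 5 were called lower, beside 6.53% of all genes, Fabp4, Pparg and Cebpa with log2 differences of -2.37, -1.67 and -1.36 (limma adjusted p = 0.0385, 0.0329 and 0.0190). The Fabp4 call was lost without any 1 reaggregate or without flat culture 2 or 4, at an adjusted p of up to 0.124, the Pparg call without any 1 of reaggregates 1 to 5 or without flat culture 2 or 4, at up to 0.114, and the Cebpa call without flat culture 4 (0.0685) or flat culture 2 (less than 2-fold). All 5 osteoblast markers exceeded 0.5 RPM in at least 1 library, Ibsp in reaggregate 2 alone (0.681 RPM), led by Runx2 at 7.47 RPM per kb. In the de Bruijn cultures 1 was called lower, beside 3.87% of all genes, and 1 higher, beside 1.82%. Alpl differed by -3.85 and Sp7 by 1.33 log2 units (limma adjusted p = 0.00836 and 0.0476). Sp7 passed the filter only through those 2 cultures, so its p is not read as support for a difference. The list summed to 56.6 to 109 RPM in the reaggregates and 38.9, 50.9, 78.6 and 42.6 RPM across flat cultures 1 to 4. Among 4 blood cell markers found of 5, Ptprc and Gata1 were listed at 0, and Cd34, which stromal cells can also express, had 8.15 to 54.9 RPM in the reaggregates, 72.6 and 26.5 RPM in flat cultures 1 and 3 and 0 in flat cultures 2 and 4 (limma adjusted p = 0.00753). Cd34 was the 1 blood cell marker called lower in the de Bruijn cultures, beside 3.87% of all genes. Of 5 endothelial markers Pecam1 alone exceeded 0.5 RPM, and of 4 epithelial markers none did, with Epcam and Krt18 listed at 0.

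Many calls on listed genes depended on which libraries or genes entered. Of the 19 named between reaggregates and flat cultures, 4 were called when consecutive reaggregates were averaged, Kdm6b, Calcoco1, Pdgfra and Pdgfrb (limma adjusted p = 0.0175 to 0.0395), and the other 15 had an adjusted p of 0.0534 to 0.185. Against the flat cultures without a source label alone 8 were called, Pbx3, Kdm6b, Cyp26b1, Calcoco1, Col3a1, Col1a1, Pdgfra and Pdgfrb, and against those labelled de Bruijn alone 19. With pairs averaged against the flat cultures without a source label Pdgfrb alone was called. With only the reaggregates with IL-3 the calls were Calcoco1, Pdgfra and Pdgfrb, and with only those without it these 3 and also Kdm6b and Ezh1. Without any 1 flat culture none of the 12 calls named between the 2 kinds of flat culture was kept, as limma then called 0 of all genes. With no filter on low values 2 of the 12 were called, Plin1 and Tbx4, and Sp7 was called in 3 of 11 alternatives, being lost also with either other pseudocount and without trend. With no filter 13 of the 19 calls between reaggregates and flat cultures were kept. Fewer libraries entered the fits that left libraries out. The reaggregates carry no source label, so packing and cell source cannot be told apart for any call between reaggregates and flat cultures.

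RefSeq promoters of 300 bases (build GRCm38.p6) were matched for 13 of the 26 Hox genes, giving 15 promoters; among the 10 Hox genes above 0.5 RPM those of Hoxa4, Hoxb2 and Hoxb3 were not matched. TGATNNAT, the letters bound by Hox proteins with Pbx, was searched on both strands and found in 3 of the 15 promoters (20%) and in 8.85% of all 32851 promoters. AGGTCA, a half-site letter string of retinoic acid and other nuclear receptors, was found on either strand in 5 of the 15 (33.3%) and in 16.3% of all. The median number of CpG was 14 in the Hox promoters and 7 in all promoters. A match is a description, not a site or a cause. The 4 promoters printed are those of Hoxb4, Hoxa5, Hoxa2 and Hoxd10. Hoxb4, at chr11:96318017-96318316 on the plus strand, is the 1 detected HoxB gene with a matched promoter. Hoxa5, at chr6:52204538-52204837 on the minus strand, had the highest level per kb of annotated exon. Hoxa2, at chr6:52164782-52165081 on the minus strand, is the 1 detected gene with TGATNNAT. Hoxd10, at chr2:74691641-74691940 on the plus strand, was listed at 0 in every library. Capitals mark both letter strings on either strand.
Hoxb4: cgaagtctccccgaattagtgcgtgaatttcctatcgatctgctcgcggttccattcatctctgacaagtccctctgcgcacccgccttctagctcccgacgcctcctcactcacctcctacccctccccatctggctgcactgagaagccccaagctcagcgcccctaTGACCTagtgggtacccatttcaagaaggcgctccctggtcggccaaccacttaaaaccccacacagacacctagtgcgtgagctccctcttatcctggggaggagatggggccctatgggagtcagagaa
Hoxa5: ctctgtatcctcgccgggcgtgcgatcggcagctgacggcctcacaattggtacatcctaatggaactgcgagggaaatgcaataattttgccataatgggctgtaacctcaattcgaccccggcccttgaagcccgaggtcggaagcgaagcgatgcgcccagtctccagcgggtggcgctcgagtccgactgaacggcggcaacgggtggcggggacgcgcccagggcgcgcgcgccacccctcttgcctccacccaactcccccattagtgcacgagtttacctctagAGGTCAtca
Hoxa2: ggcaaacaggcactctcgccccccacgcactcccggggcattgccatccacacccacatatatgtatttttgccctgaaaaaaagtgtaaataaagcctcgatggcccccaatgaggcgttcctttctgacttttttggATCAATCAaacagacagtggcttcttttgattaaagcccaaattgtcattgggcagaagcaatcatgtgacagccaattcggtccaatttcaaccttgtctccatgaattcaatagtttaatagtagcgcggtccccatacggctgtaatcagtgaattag
Hoxd10: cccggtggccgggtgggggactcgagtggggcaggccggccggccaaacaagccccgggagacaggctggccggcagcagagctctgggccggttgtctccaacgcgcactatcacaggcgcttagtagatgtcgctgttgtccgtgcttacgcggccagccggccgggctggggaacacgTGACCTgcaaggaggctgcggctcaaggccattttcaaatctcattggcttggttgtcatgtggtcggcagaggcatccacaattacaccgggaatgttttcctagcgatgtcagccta
Of these, Hoxb4, Hoxa5 and Hoxd10 each hold 1 AGGTCA and Hoxa2 holds 1 TGATNNAT. Of the 5 Hox promoters with AGGTCA, 2 belong to genes above 0.5 RPM and 3 to genes listed at 0 (Hoxc4, Hoxd3 and Hoxd10). Hoxa5 and Hoxd10 have 29 and 22 CpG, Hoxb4 14 and Hoxa2 9.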

How the data were processed

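The deposited table gives RPM for 26888 genes in 10 libraries of 50-base single-end, unstranded RNA sequencing. The authors aligned reads with TopHat 1.2.0 to NCBIM37 (mm9), divided reads with several positions among genes and scaled them to RPM. Further columns hold the authors' DESeq log2 fold change and adjusted p of reaggregates against flat cultures, and were not used. Read depth was estimated by taking the commonest value above 0 in each library as 1 read; only 38.9% to 43.5% of values up to 10 reads were then whole within 0.05 read, so counts are approximate. Exon lengths came from a GENCODE annotation of the same build but a later release, with 25693 genes matched by identifier. Tests used limma 3.58.1 in R 4.3.3 (lmFit, eBayes with trend) on log2(RPM + 0.5) for the 16933 genes that passed 0.5 RPM in 1 or more libraries; each comparison had no covariate, and Benjamini-Hochberg adjustment covered all genes tested. The Hox genes above 0.5 RPM are named; from each other list, up to 4 called genes with the largest difference and the most abundant gene per kb are named, and other listed genes are named for values singled out or listed at 0. Of the genes that the rule and the lists select, 2 are not reported here, and the counts, sums and medians of Hox genes and lists leave them out. Members and lists were chosen with earlier results of these data known. Alternatives changed the pseudocount, the filter, the scaling, the trend, the libraries used and the blocks. Shared sequence was counted in windows of 50 bases. Summaries and figures used Python 3.11.15, pandas 2.3.3, numpy 2.4.6, scipy 1.17.1 and matplotlib 3.10.9.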

Additional observations from a re-analysis of the deposited data

Results flagged for a closer look

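Of 24 groups of values examined for a sample far from the rest, of which chance alone would give about 1.2, 1 was found. Hoxb4 in reaggregate 1 had 1.58 RPM, and the nearest of the other 5 reaggregates had 0.637 RPM. The difference was not tested.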

How the results depend on the processing

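Depth limits Hox genes under about 3 reads in a library, and the comparison of the flat cultures has 2 libraries a group. Of 753 log2 differences recomputed for reaggregates against flat cultures 592 kept their direction and side of the threshold, of 262 between the flat cultures 182 and of 149 for IL-3 134. The rest follow as counts or reversals; causes were not tested except where fewer samples or genes entered.

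Genes called in all, reaggregates against flat cultures, were 2345. They were 741 with consecutive reaggregates averaged, 4354 with only the flat cultures labelled de Bruijn, 819 with only the reaggregates without IL-3, 637 with only those with IL-3 and 1581 to 3643 without 1 library. With reaggregates 5 and 6 left out, an alternative chosen after seeing the data, they were 3067. With consecutive reaggregates averaged, also added after seeing the data, they were 4214 against only the de Bruijn cultures and 520 against only those without a source label. Hox genes called lower, 0 of 10, became 4 (and 1 called higher rather than 0) with only the de Bruijn cultures, with or without averaging, and 0 to 1 without 1 library.

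With the replicate number as a block 3039 genes were called (1885 higher, 1154 lower). The pairing of numbers was checked by correlating each sample's deviations from its group's mean across genes. Samples of the same number gave -0.04, -0.21, 0.07 and 0.16 (1 to 4), not all above 0.1, so the block was not used. Differences between the 2 kinds of flat culture enter these correlations, so the check cannot show whether samples of the same number were paired. Between different numbers, flat culture 3 gave 0.34 and 0.38 with reaggregates 1 and 2 but -0.29 and -0.33 with reaggregates 5 and 6. Flat culture 1 gave 0.24 and 0.33 with reaggregates 5 and 6 but -0.27 and -0.26 with reaggregates 3 and 4. What ties these libraries was not tested. Flat cultures carry only the numbers 1 to 4, so under the block reaggregates 5 and 6 do not enter the difference. The block therefore gives the same log2 differences as leaving these 2 out, by design. In both settings Hoxa6 turned to 0.079 log2 units and Hoxa3 to 0.47.

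Genes called between the flat cultures, 965, became 204 with no filter, 1458 above 1 RPM in 2 libraries, 1763 after quantile normalization, 2348 in 1 fit of 3 groups and 0 to 0 without 1 flat culture. Hox genes called higher, 1, became 0 with no filter, 2 above 1 RPM, 3 after quantile normalization, 3 in 1 fit of 3 groups and 0 without any 1 culture. Hox genes called lower, 1, became 0 with no filter and 0 without any 1 culture. For IL-3 the counts were 0 in every alternative.

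Against only the flat cultures without a source label, signs turned for Hoxa5 (-0.069), Hoxa4 (-0.53), Hoxa3 (0.089), Hoxb2 (0.32), Hoxb3 (0.077) and Hoxb4 (0.10), and against only the de Bruijn cultures for Hoxa7 (-0.12), each also with consecutive reaggregates averaged. Leaving out 1 library moved reaggregates minus flat from -0.058 to 0.34 for Hoxa7 and from -0.33 to 0.15 for Hoxa3. Between the flat cultures it moved Hoxa6 from -0.26 to 0.50, Hoxa3 from -0.40 to 0.98 and Hoxa2 from -0.00049 to 0.13. For IL-3 it moved Hoxa6 from -0.38 to 0.19, Hoxa5 from -0.32 to 0.22, Hoxa4 from -0.12 to 0.044, Hoxa3 from -0.57 to 0.47, Hoxa2 from -0.11 to 0.47, Hoxb2 from -0.56 to 0.19 and Hoxb4 from -0.60 to 0.063. With reaggregates 5 and 6 left out the IL-3 difference was 0.11 for Hoxa5 and -0.018 for Hoxa2. All of these are genes not called in the comparison concerned.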

Other observations

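Of the windows of 50 bases in the transcripts of Hoxa4, Hoxa5, Hoxa7, Hoxa10, Hoxb2 and Hoxb3, 0 occurred in another protein-coding transcript. For Hoxa2 9.27% and for Hoxa3 5.28% of windows did so, all in a second entry of the table that is also placed at Hoxa3 and had at most 0.595 RPM. For Hoxa6 and Hoxb4 the shares were 0.178% and 0.22%.

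In the HoxB interval the pseudogene Gm11539 had 63.6 to 90.3 RPM in the reaggregates and 127, 148, 98.2 and 190 RPM across flat cultures 1 to 4. Every reaggregate lay below every flat culture, at a log2 difference of -0.83 (limma adjusted p = 0.00804), less than 2-fold. In the HoxA interval 5730596B20Rik had levels, in RPM, of 5.97, 8.69, 9.38, 10.9, 0.882 and 0.865 across reaggregates 1 to 6 and of 1.16, 0.493, 6.12 and 2.46 across flat cultures 1 to 4. Its values were low in reaggregates 5 and 6 and in flat culture 1, as those of Hoxa3 were, but lowest in flat culture 2, where Hoxa3 was not low. Its exons overlap those of Hoxa3, so without strand some reads may be common to both entries.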
